A study of Mus musculus with 9 samples.

Results

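The kidney genes examined here serve acid and base transport in intercalated cells. They are Atp6v1b1, Atp6v0d2, Atp6v1g3, Slc4a1, Slc26a4, Slc4a9, Foxi1, Rhcg, Rhbg and Car2, taken by name from genes known for these roles, 10 of the 55385 genes in the deposited table. Kidneys of 9 male C57BL/6J mice (C57BL/6 in the labels), 8 to 10 weeks old when feeding began, were collected after 4 weeks and sequenced with 1 poly(A)-selected library per mouse. Control mice (replicates 2, 4 and 5) had no disease induced. HN mice (replicates 4, 8 and 12) had hyperuricemic nephropathy, induced with adenine at 0.16 g/kg mixed with potassium oxonate at 2.4 g/kg, fed on alternate days over those weeks. PEC mice (replicates 1, 2 and 3) had the same feeding and also received the flavonoid pectolinarigenin by mouth each day at 25 mg/kg.

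Intercalated cells lie among the principal cells of the connecting tubule and collecting duct. Type A cells secrete protons into the urine with an apical V-type proton pump and return bicarbonate to the blood through the anion exchanger AE1, whereas type B cells secrete bicarbonate through the exchanger pendrin. The forkhead factor FOXI1 is needed for these cells to form and to make several of the pump subunits, and ammonia leaves across the collecting duct through Rhesus glycoproteins.

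Total counts lay between 57714111 and 81069646 reads per library, with a median of 74397038. Each gene had a count and an FPKM (its count scaled by gene length and by the library total) in the table. The FPKM in each library is given below in the order of the replicate numbers above. The tests were made on counts with TMM factors, which set the bulk of genes level between libraries, and a normalised RPKM on that scale (count scaled by exon length and by the TMM-scaled library total) is given as mean ± SD. The scales differed between groups. Mitochondrial genes took 14.2 ± 1.82% of the counts for Control, 6.19 ± 0.164% for HN and 12.3 ± 1.77% for PEC (mean ± SD, n = 3). With total counts in place of TMM the median log2 fold change of all 21392 genes tested was 0.56 between HN and Control, -0.21 between PEC and HN, and 0.40 between PEC and Control. With mitochondrial and rRNA genes left out of the total counts, the median was 0.43, -0.10 and 0.38 in the same order (21323 genes). With TMM it was -0.0008, -0.02 and 0.04, so that fold changes from TMM are already relative to that shift. The deposited FPKM carry the shift. The labels give kidney for all 9 samples, while their shared extraction text speaks of an adipose type. The tissue was checked with kidney markers, and the lowest FPKM in any of the 9 libraries was 845 for Umod of the thick limb, 209 for Slc34a1 of the proximal tubule and 86.3 for Aqp2 of principal cells. Loci of ribosomal RNA took 0.296%, 1.72% and 0.302% of the counts in PEC replicates 1, 2 and 3 and 0.00419% or less in each of the 6 Control and HN libraries, so that all 3 PEC libraries stood apart. PEC replicate 3 stood apart in adipose markers, whose summed normalised RPKM over 4 genes was 5.40, 0.138 and 0.0706 for Control, 0.214, 0.369 and 8.16 for HN and 0.249, 0.177 and 118 for PEC, with Adipoq the most abundant in that replicate. None of the 3 adipose markers tested was called in any comparison (also none at an unadjusted p of 0.05 or with DESeq2). Without that replicate 7 of the 10 genes were called between PEC and HN and 3 between PEC and Control, the same numbers as with it.

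**Figure D1:**
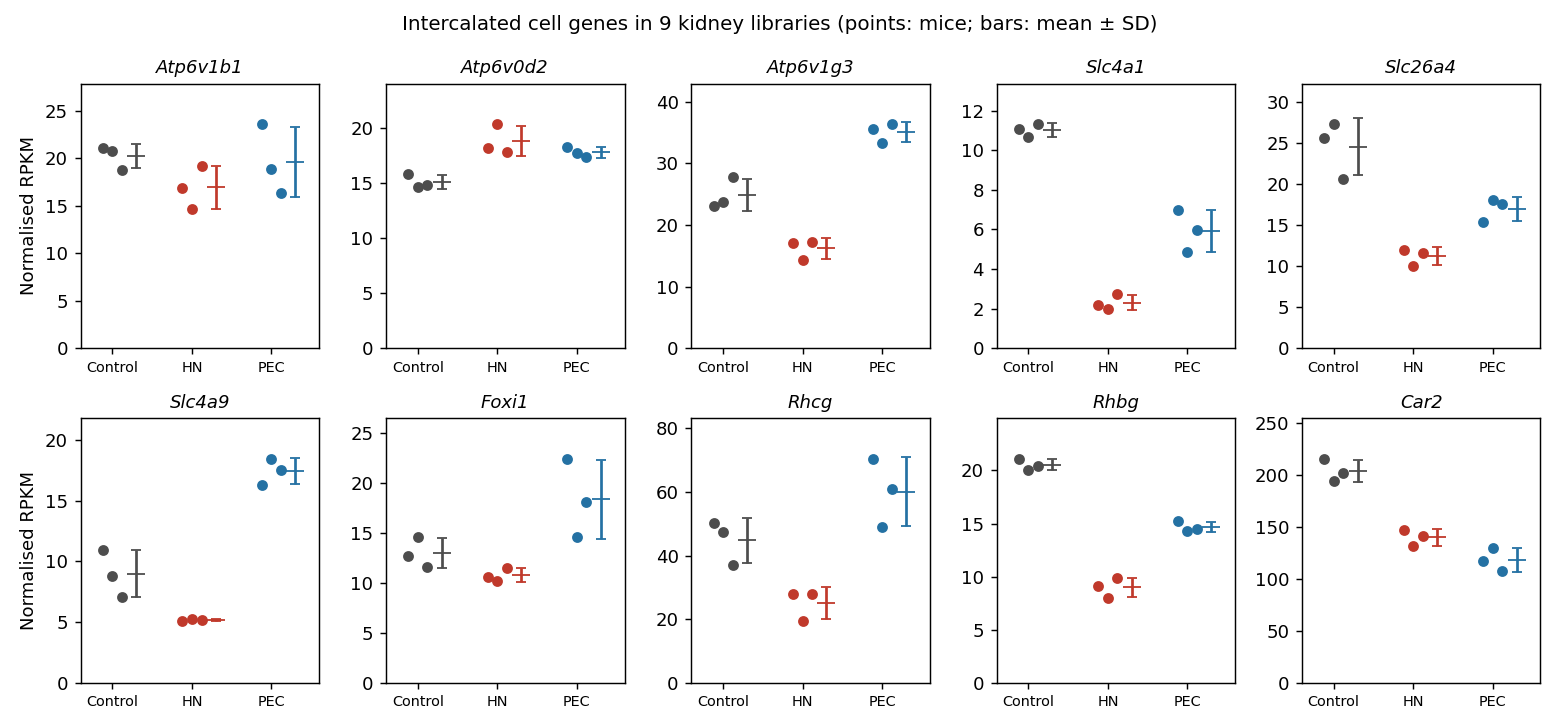
Normalised RPKM (y axis, linear from 0) of the 10 genes in Control, HN and PEC mice; points are single mice and bars the mean ± SD of 3 mice. In HN mice all 3 points lie below all Control points for 8 genes, Atp6v1b1 overlaps, and Atp6v0d2 lies above Control, an order that total-count scaling changes for some of them (the panels of 5 scalings show which).

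HN was compared with Control mice to find the genes that differ in the nephropathy. With TMM scaling HN mice had lower levels of all 3 anion exchanger genes, of both ammonium transport genes and of the pump subunit gene Atp6v1g3. These were 6 of 10 genes called lower (1.5-fold or more, with an edgeR adjusted p, after Benjamini and Hochberg, of 0.05 or less), against 14.7% of all genes tested, a share that is a description only, as earlier results were known when the genes were chosen. None was called higher, also at an unadjusted p of 0.05 or with DESeq2, against 17.7% of all genes. Normalised RPKM did not overlap between the groups for 9 of 10 genes, against 55.4% of all genes tested. The median log2 fold change of the 10 was -0.70, beside -0.0008 for all genes. In bulk kidney RNA, fewer intercalated cells and less RNA per cell cannot be told apart. With total counts in place of TMM, 1 of the 10 (Atp6v0d2) was called higher and 2 (Slc4a1 and Rhbg) lower, while the split of all genes went from 3777 higher and 3154 lower to 7707 higher and 1287 lower. Atp6v1g3 was called in 2 of 10 fits (edgeR with and without the filter on low counts), stayed below 0 at -0.58 to -0.06 in the other 8, and was not called without Control replicate 5 (-0.53) or HN replicate 8 (-0.53).

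PEC was compared with HN mice to see how kidneys of treated mice differed within the nephropathy. In PEC mice, 7 of 10 genes were called higher, against 13.4% of all genes tested, and none lower (also none at an unadjusted p of 0.05 or with DESeq2), against 15.3%. They were the 3 anion exchangers, Foxi1, Rhcg, Rhbg and Atp6v1g3, while Atp6v1b1, Atp6v0d2 and Car2 were not called. Normalised RPKM did not overlap for 8 of 10 genes, against 55.5% of all genes. The median of the 10 was 0.74, beside -0.02 for all genes. The higher share of ribosomal RNA loci in all 3 PEC libraries cannot be told apart from the group, here and in PEC against Control. In the PEC libraries short and GC-rich genes were higher than in the others (Spearman correlation across 21358 genes -0.276 with length and 0.255 with GC content, genes not being independent replicates). With both removed by an offset chosen after seeing the data, 4 of the 10 were called (Atp6v1g3, Slc4a1, Slc4a9 and Rhcg), the same 4 as with total counts, and the call of Slc26a4 was also lost without HN replicate 8 (0.51) or PEC replicate 2 (0.55).

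PEC and Control mice were compared to see which differences were present beside Control kidneys; this comparison shares its libraries with the other 2. Slc4a9 was called higher, 1 of 10 against 18.9% of all genes, and Slc4a1 and Car2 lower, 2 of 10 against 17.4%, shares near the background. The groups did not overlap for 7 of 10 genes, against 57.3% of all genes. Among all genes, 4053 were higher and 3731 lower. With total counts these became 6414 and 1962, and 5 of the 10 were called higher and none lower, and with the offset for gene length 1 was higher and 4 (Slc4a1, Slc26a4, Rhbg and Car2) lower, so that only the higher level of Slc4a9 was called under edgeR and its 9 alternative fits. Foxi1 was called without Control replicate 4 (0.59) or PEC replicate 2 (0.64), and Slc26a4 without Control replicate 5 (-0.65).

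**Figure D2:**
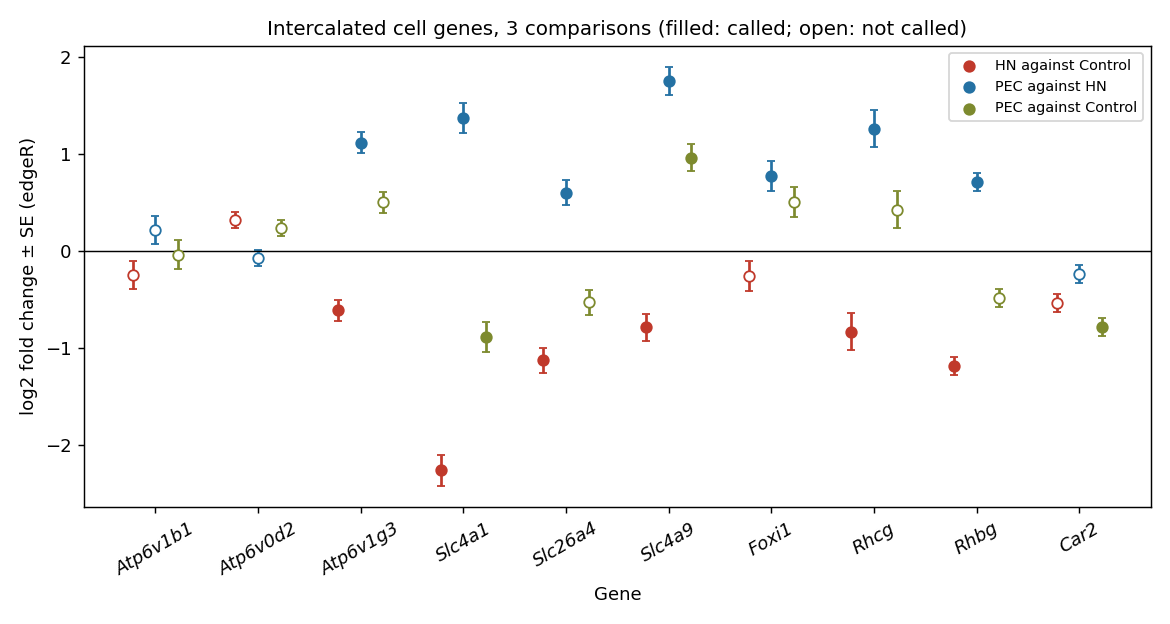
Log2 fold change ± SE from edgeR (y axis) of the 10 genes (x axis) in the 3 comparisons, with filled points for called genes. In HN against Control 9 of 10 points lie below 0 with TMM scaling (Atp6v1b1 and Foxi1 turn positive with total counts or FPKM, and Car2 with total counts), and in PEC against HN 7 are called above 0.

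Among the pump subunits, Atp6v1b1 (ENSMUSG00000006269, chromosome 6, 83742990 to 83758855 of GRCm38) encodes the B1 subunit of the cytosolic V1 part, whose loss causes distal renal tubular acidosis with deafness. Its FPKM was 15.7, 15.8 and 13.4 in Control mice, 17.5, 15.9 and 21.01 in HN mice and 21.7, 17.4 and 15.1 in PEC mice. All 3 HN values lay above the Control values on this scale, whereas the PEC values overlapped both groups. On the TMM scale its normalised RPKM was 20.2 ± 1.27 for Control, 16.9 ± 2.27 for HN and 19.6 ± 3.67 for PEC (mean ± SD, n = 3), and here HN and Control mice overlapped. The log2 fold change for HN against Control was -0.26 (SE 0.15, edgeR adjusted p = 0.199). It was not called in any comparison, and for PEC against HN it was 0.21 (SE 0.15, edgeR adjusted p = 0.279). For PEC against Control it was -0.04, and 0.09 without PEC replicate 3, the replicate with the lowest PEC value.

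Atp6v0d2 (ENSMUSG00000028238, chromosome 4, 19876841 to 19922605) encodes the d2 subunit of the membrane V0 part and is expressed in macrophages and osteoclasts as well as in kidney. The FPKM of Atp6v0d2 was 11.8, 11.1 and 10.6 in Control mice, 18.9, 22.1 and 19.6 in HN mice and 16.9, 16.4 and 15.99 in PEC mice. HN values were the highest and Control values the lowest, with no overlap between any groups. Its normalised RPKM was 15.1 ± 0.641 for Control, 18.8 ± 1.36 for HN and 17.8 ± 0.488 for PEC (mean ± SD, n = 3), where HN and PEC overlapped and both lay above Control. The log2 fold change for HN against Control was 0.32 (SE 0.08, edgeR adjusted p = 0.0130), under the fold needed for a call, but it passed with total counts (0.87) and with limma on log2(FPKM + 1) (0.80). PEC and HN mice differed by -0.08 (SE 0.08, edgeR adjusted p = 0.481). Macrophage markers moved in the same libraries. The summed normalised RPKM of 8 macrophage markers was 89.2, 103 and 88.7 for Control, 1094, 1115 and 949 for HN and 461, 475 and 623 for PEC, with Lyz2 the most abundant in HN and PEC mice, Acp5 in Control mice, and none at 0. Of these 8, 7 were called higher in HN than Control mice, among them Gpnmb (4.90), Lyz2 (4.73) and Adgre1 (3.74), and 6 were called lower in PEC than HN mice. Their part in the level of Atp6v0d2 was not tested.

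Atp6v1g3 (ENSMUSG00000026394, chromosome 1, 138273738 to 138289462) encodes the kidney form of the G subunit in the pump's stalk. Its FPKM was 17.2, 18.04 and 19.9 in Control mice, 17.8, 15.4 and 18.9 in HN mice and 32.8, 30.8 and 33.5 in PEC mice. PEC mice lay well above both other groups, which overlapped on this scale. Normalised RPKM was 24.9 ± 2.57 for Control, 16.2 ± 1.71 for HN and 35.1 ± 1.58 for PEC (mean ± SD, n = 3), and the 3 groups did not overlap. On this scale Atp6v1g3 fell in HN mice by 0.62 on the log2 scale (SE 0.11, edgeR adjusted p = 0.00165), and by less than the fold needed in 8 of 10 fits. In PEC mice it was higher than in HN mice by 1.11 (SE 0.11, edgeR adjusted p = 1.16e-04), a rise called under all 10 fits. Against Control it stood at 0.50 (SE 0.11, edgeR adjusted p = 0.00492), short of the fold. It was called above Control in 5 of 10 fits, at 0.86 with total counts and 0.89 with the offset for length and GC content. With the offset for length alone it was 0.34 and not called.

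Promoters are shown for the 2 pump subunit genes that hold a forkhead core, since forkhead factors bind such sequences and Foxi1 is itself among the genes. RefSeq promoters (GRCm38.p6, 250 bases before to 50 after the start) were at hand for 5 of 10 genes, Atp6v1b1, Atp6v1g3, Slc26a4, Foxi1 and Rhcg. The core TGTTTA was searched on both strands, and the spelling TGTTTG was added after the sequences had been seen. Capitals mark the match, and the 250 bases before the start are printed from the plus strand, on which both genes lie. The Atp6v1b1 stretch is chr6:83742767-83743016 and the Atp6v1g3 stretch chr1:138273488-138273737; both lie upstream of the RefSeq start, and the end of the first falls in the first exon of the GENCODE model.
Atp6v1b1: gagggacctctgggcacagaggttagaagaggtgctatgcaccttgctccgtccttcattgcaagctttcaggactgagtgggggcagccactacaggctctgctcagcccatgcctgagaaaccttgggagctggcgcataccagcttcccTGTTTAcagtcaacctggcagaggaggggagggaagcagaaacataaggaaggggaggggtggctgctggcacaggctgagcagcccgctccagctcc
Atp6v1g3: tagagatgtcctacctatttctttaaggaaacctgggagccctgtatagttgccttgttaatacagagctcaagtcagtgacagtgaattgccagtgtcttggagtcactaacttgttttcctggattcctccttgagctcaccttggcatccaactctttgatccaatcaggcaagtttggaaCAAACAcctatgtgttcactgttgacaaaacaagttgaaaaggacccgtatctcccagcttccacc
In Atp6v1b1 TGTTTA begins at position -98 from the start, and in Atp6v1g3 CAAACA, the reverse complement of TGTTTG, begins at -66. Slc26a4 has CAAACA at position 28 after the start, and neither spelling was found in the windows of Foxi1 and Rhcg. Of all 32851 promoters of the same length, 13.4% hold TGTTTA, 18.2% hold TGTTTG and 28.2% hold either. Of the genes shown, Atp6v1g3 was called in HN against Control (with TMM scaling) and in PEC against HN, and Atp6v1b1 in neither; the difference between them was not tested.

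The other kidney-type subunit genes, Atp6v0a4 and Atp6v1c2, were both called lower in HN than in Control mice, at -1.20 (SE 0.13, edgeR adjusted p = 1.09e-04) and -0.92 (SE 0.11, edgeR adjusted p = 1.44e-04). Atp6v0a4, whose human counterpart is also a distal renal tubular acidosis gene, had a normalised RPKM of 67.9 ± 7.18 for Control, 29.6 ± 2.35 for HN and 36.7 ± 6.23 for PEC (mean ± SD, n = 3). In PEC mice it was called lower than Control (-0.89; -0.53 and not called with total counts) and was not called against HN (0.31), and with total counts it was the only 1 of the 2 still called lower in HN mice. Atp6v1c2 had a normalised RPKM of 8.13 ± 0.528 for Control, 4.29 ± 0.381 for HN and 12.4 ± 0.876 for PEC (mean ± SD, n = 3). It rose in PEC over HN mice by 1.53 (SE 0.11, edgeR adjusted p = 3.32e-05) and was called above Control as well (0.60). Of 16 general pump subunits, made in most cells, 5 were called lower and none higher in HN mice (none higher also with DESeq2 or at an unadjusted p), with a median of -0.43; with total counts none was called and the median was 0.12. The largest of these changes were Atp6v1a (-0.97), Atp6v1b2 (-0.89) and Atp6v1e1 (-0.79). Between PEC and HN mice 1 of the 16 was called higher (Atp6v1f, 0.71) and 1 lower (Atp6v1a, -0.72), with a median of -0.02; with total counts none was higher and 3 were lower.

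**Figure D3:**
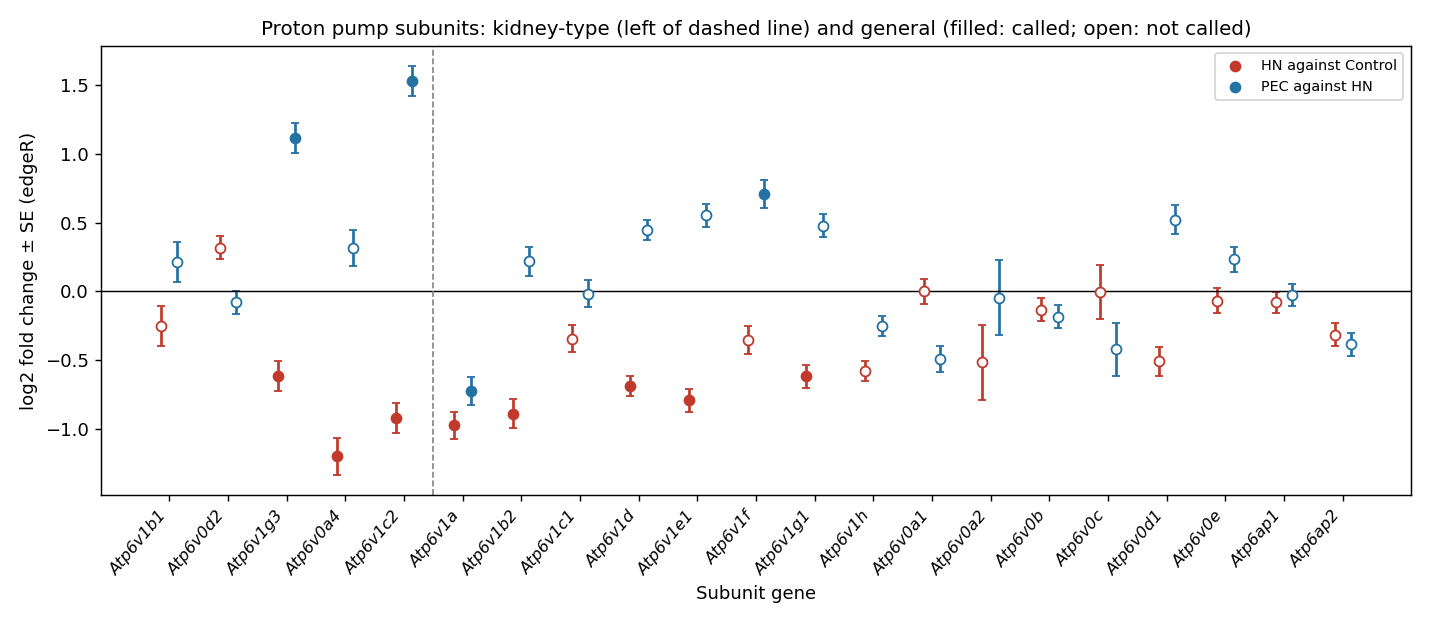
Log2 fold change ± SE from edgeR (y axis) of 5 kidney-type and 16 general proton pump subunit genes (x axis, split by the dashed line), with filled points for called genes. Atp6v1g3 and Atp6v1c2 fell in HN and rose in PEC mice under TMM scaling, whereas Atp6v1a was lower in both comparisons; the falls in HN mice of Atp6v1g3, Atp6v1c2 and the general subunits were not called with total counts.

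Ratios within a library do not depend on its scaling. They do not remove the relation of the PEC libraries to gene length and GC content, which can differ between the 2 genes of a ratio. This limit holds for every ratio with PEC mice, here and below. The FPKM ratio of Atp6v1b1 to its general counterpart Atp6v1b2 was 0.241, 0.249 and 0.222 for Control, 0.364, 0.298 and 0.455 for HN and 0.434, 0.316 and 0.354 for PEC. Every HN and PEC mouse lay above every Control mouse, a log2 difference of 0.63 for HN and 0.62 for PEC. A ratio does not tell which of its 2 genes moved. Normalised RPKM of Atp6v1b2 was 85.0 ± 2.01 for Control, 45.9 ± 3.55 for HN and 53.4 ± 6.75 for PEC (mean ± SD, n = 3). On that scale Atp6v1b1 was not called in any comparison. The ratio of Atp6v0d2 to Atp6v0d1 was 0.224, 0.177 and 0.217 for Control, 0.317, 0.406 and 0.371 for HN and 0.227, 0.252 and 0.240 for PEC. It was highest in HN mice, and no groups overlapped. For Atp6v1g3 over Atp6v1g1 the ratio was 0.136, 0.145 and 0.163 for Control, 0.156, 0.137 and 0.151 for HN and 0.213, 0.236 and 0.245 for PEC, so that PEC mice lay above the other groups, which overlapped (log2 difference 0.64 from HN and 0.0008 between HN and Control). Wherever groups did not overlap in a ratio, the exact two-sided permutation p was 0.1, the smallest that 3 against 3 mice allow, and 0.15 after adjustment over the 18 comparisons of ratios. The difference in ratio therefore could not pass the threshold in this design.

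Of the anion exchangers, Slc4a1 (ENSMUSG00000006574, chromosome 11, 102348824 to 102365280) encodes AE1, which serves both the basolateral side of type A cells and the red blood cell membrane. Its FPKM was 8.26, 8.07 and 8.10 in Control mice, 2.27, 2.13 and 2.97 in HN mice and 6.40, 4.46 and 5.49 in PEC mice. The 3 groups did not overlap, with Control highest and HN lowest. Normalised RPKM was 11.01 ± 0.340 for Control, 2.29 ± 0.381 for HN and 5.92 ± 1.06 for PEC (mean ± SD, n = 3). Slc4a1 had the largest fall of the 10 genes, -2.26 (SE 0.16, edgeR adjusted p = 8.97e-06) in HN against Control, called under all 10 fits. PEC mice were higher than HN mice by 1.37 (SE 0.16, edgeR adjusted p = 2.29e-04), also called under all 10. They were below Control at -0.89 (SE 0.15, edgeR adjusted p = 0.00137). With total counts (-0.53; -0.55 without mitochondrial and rRNA genes) and limma on log2(FPKM + 1) (-0.51) they were below Control by less than the fold needed.

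Counts per gene do not separate the kidney and red cell transcripts of Slc4a1, and red cell genes moved in the same libraries. The summed normalised RPKM of 5 erythroid genes was 455, 433 and 714 for Control, 87.04, 67.00 and 49.1 for HN and 342, 419 and 355 for PEC, with Hba-a1 the most abundant in Control and HN mice, Hbb-bs in PEC mice, and none at 0. All 5 were called lower in HN than Control mice and higher in PEC than HN mice, under every scaling. Among them Hba-a2 changed by -3.11 and then 2.07, Hbb-bt by -2.99 and 2.96, and Alas2, the first enzyme of heme synthesis in red cells, by -3.10 and 2.03. The globin pairs Hba-a1 and Hba-a2 (99.8% identical) and Hbb-bs and Hbb-bt (94.9%) may share reads, so their single values are uncertain. Other erythroid genes were not analysed here. Hba-a1, Hba-a2 and Alas2 stood lower in PEC than Control mice (-1.01, -1.04 and -1.07), and Hbb-bs and Hbb-bt did not; with total counts Hba-a1 alone of the 5 was called lower and Hbb-bs was called higher. The part of red cell RNA in the change of Slc4a1 was not tested.

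**Figure D4:**
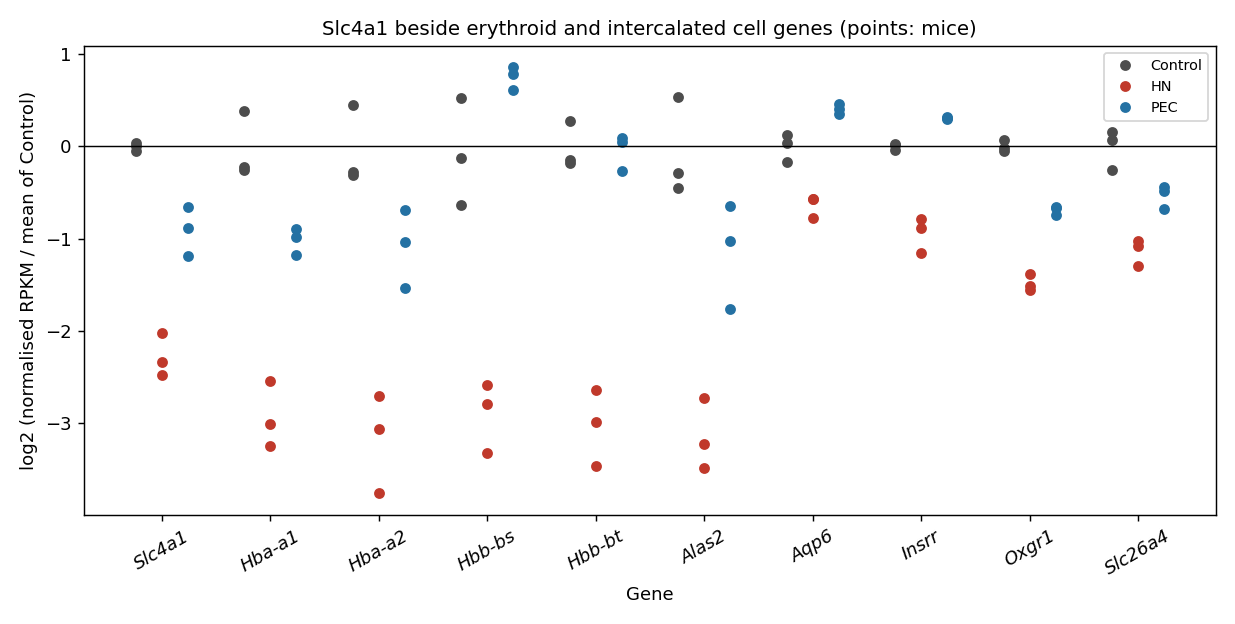
Log2 of the normalised RPKM of each mouse over the Control mean (y axis) for Slc4a1, 5 erythroid genes and 4 other intercalated cell genes (x axis); points are single mice. Slc4a1 and the erythroid genes are lowest in HN mice under every scaling, and Slc4a1 falls less than the globin genes and more than Aqp6, Insrr, Oxgr1 and Slc26a4.

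Slc26a4 (ENSMUSG00000020651, chromosome 12, 31519827 to 31559969) encodes pendrin, the apical chloride and bicarbonate exchanger of type B cells. Its FPKM was 19.2, 20.7 and 14.7 in Control mice, 12.5, 10.8 and 12.7 in HN mice and 14.1, 16.6 and 16.1 in PEC mice. HN mice were the lowest, and PEC and Control mice overlapped on this scale. The normalised RPKM of 24.5 ± 3.49 for Control, 11.2 ± 1.07 for HN and 16.9 ± 1.44 for PEC (mean ± SD, n = 3) put PEC between the other groups with no overlap. Slc26a4 changed by -1.13 (SE 0.13, edgeR adjusted p = 1.18e-04) in HN against Control and by 0.60 (SE 0.13, edgeR adjusted p = 0.00562) in PEC against HN, the second just past the fold needed. With total counts neither was called (-0.58 and 0.40). PEC against Control gave -0.53 (SE 0.13, edgeR adjusted p = 0.00762), short of the fold.

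Slc4a9 (ENSMUSG00000024485) encodes AE4, a basolateral exchanger of type B cells. Its FPKM was 8.17, 6.69 and 5.07 in Control mice, 5.28, 5.72 and 5.61 in HN mice and 15.00, 17.00 and 16.1 in PEC mice. PEC mice lay far above the others, while Control and HN overlapped. Normalised RPKM was 8.96 ± 1.93 for Control, 5.17 ± 0.0980 for HN and 17.4 ± 1.07 for PEC (mean ± SD, n = 3), where HN lay below Control without overlap. It had the largest rise of the 10 genes in PEC over HN mice, 1.75 (SE 0.14, edgeR adjusted p = 5.41e-05), and stood above Control by 0.96 (SE 0.14, edgeR adjusted p = 5.73e-04). For HN against Control the change was -0.79 (SE 0.14, edgeR adjusted p = 0.00175), and -0.24 and not called with total counts. The FPKM ratio of Slc26a4 to Slc4a1 was 2.32, 2.57 and 1.82 for Control, 5.49, 5.08 and 4.27 for HN and 2.20, 3.73 and 2.94 for PEC, highest in HN mice with no overlap with either other group (exact permutation p = 0.1, adjusted 0.15).

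Foxi1 (ENSMUSG00000047861, chromosome 11, 34204338 to 34208089) is the transcription factor among the 10. Its FPKM was 9.46, 11.03 and 8.30 in Control mice, 11.02, 11.04 and 12.6 in HN mice and 20.6, 13.4 and 16.7 in PEC mice. The PEC mice were all above the others, and HN and Control mice touched, HN replicate 4 lying just under Control replicate 4. Normalised RPKM was 12.9 ± 1.49 for Control, 10.8 ± 0.661 for HN and 18.3 ± 3.93 for PEC (mean ± SD, n = 3), with PEC replicate 2 within the Control range. The difference between HN and Control was -0.26 (SE 0.16, edgeR adjusted p = 0.214) and was not called, and its sign turned with total counts (0.29). Foxi1 rose in PEC over HN mice by 0.77 (SE 0.16, edgeR adjusted p = 0.00460), but not with total counts (0.57) or after the offset for length and GC content (0.49), where the fold fell short. For PEC against Control it was 0.50 (SE 0.16, edgeR adjusted p = 0.0264), short of the fold. It was called higher than Control in 4 of 10 fits, at 0.86 with total counts. With the offset for length and GC content it was 0.22 and not called.

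Likeness of pattern was described by the Pearson correlation of log2(CPM + 1) over the 9 libraries, in a table of 15477 genes with a mean CPM of at least 1, from which the 10 were left out of the ranking. All points share the 3 groups and their scaling, and no p is given. Outside the 10, the 5 genes most like Foxi1 were Pantr2 (0.980), Sgf29 (0.974), Churc1 (0.970), Ube2n-ps1 (0.963), Tbc1d7 (0.954). For Slc26a4 they were Aqp3 (0.990), Fn3krp (0.989), Hacd3 (0.983), Idh2 (0.982), Cox7a2 (0.982). For Slc4a1 they were Sdr39u1 (0.990), Gm4285 (0.990), Oxgr1 (0.989), mt-Cytb (0.989), Prdx5 (0.988), and among the 10 Rhbg lay closer still (0.994).

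Both ammonium transport genes fell in HN mice with TMM scaling; with total counts only Rhbg was called lower. Rhcg (ENSMUSG00000030549, chromosome 7, 79593363 to 79617657), found on the apical and basolateral sides, had an FPKM of 37.5, 35.9 and 26.4 in Control mice, 28.9, 21.04 and 30.7 in HN mice and 64.8, 45.1 and 56.1 in PEC mice. The PEC mice were all highest, and HN and Control mice overlapped. Normalised RPKM was 44.8 ± 7.002 for Control, 25.1 ± 4.91 for HN and 60.1 ± 10.8 for PEC (mean ± SD, n = 3), with HN below all other mice. Rhcg changed by -0.84 (SE 0.19, edgeR adjusted p = 0.00620) in HN against Control and rose by 1.26 (SE 0.19, edgeR adjusted p = 9.47e-04) in PEC against HN, the second under all 10 fits. With total counts the first was -0.28 and not called. On the TMM scale PEC and Control mice overlapped, at 0.42 (SE 0.19, edgeR adjusted p = 0.0933). Rhcg was called higher in PEC than Control mice in 4 of 10 fits, at 0.78 with total counts. With the offset for length and GC content the difference was 0.01. The predicted gene Gm45170 lies over Rhcg on the same strand and shares no exon with it.

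Rhbg (ENSMUSG00000104445, chromosome 3, 88242874 to 88254709) encodes the basolateral transporter. Its FPKM was 15.8, 15.2 and 14.6 in Control mice, 9.45, 8.70 and 10.8 in HN mice and 14.02, 13.2 and 13.3 in PEC mice. Control mice were highest and HN lowest with no overlap. Normalised RPKM was 20.5 ± 0.529 for Control, 8.997 ± 0.909 for HN and 14.7 ± 0.493 for PEC (mean ± SD, n = 3). Rhbg fell in HN mice at -1.19 (SE 0.09, edgeR adjusted p = 1.63e-05), called under all 10 fits. It rose in PEC over HN mice by 0.70 (SE 0.09, edgeR adjusted p = 4.96e-04), a rise called in 5 of 10 fits. The call was lost with total counts (0.51), with limma (0.45 and 0.49 at a pseudocount of 1 and 0.1) and with the offset for length (0.49). It was also lost with the offset for length and GC content (0.36). Against Control Rhbg stood at -0.49 (SE 0.09, edgeR adjusted p = 0.00252). Rhbg shares 1190 exon bases with the overlapping gene Gm38392, which had at most 14 counts in any library. The FPKM ratio of Rhcg to Rhbg was 2.38, 2.36 and 1.80 for Control, 3.06, 2.42 and 2.85 for HN and 4.62, 3.41 and 4.22 for PEC, with PEC above HN and HN above Control without overlap (exact permutation p = 0.1 in each comparison, adjusted 0.15).

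Car2 (ENSMUSG00000027562, chromosome 3, 14886273 to 14900770) encodes cytosolic carbonic anhydrase, which supplies protons and bicarbonate in intercalated cells and is also made in the proximal tubule. Its FPKM was 161, 147 and 144 in Control mice, 152, 142 and 155 in HN mice and 108, 119.5 and 98.8 in PEC mice. PEC mice were the lowest, and HN and Control mice overlapped. Normalised RPKM was 203 ± 10.9 for Control, 139.6 ± 7.74 for HN and 118 ± 11.2 for PEC (mean ± SD, n = 3), where the groups followed each other downwards with no overlap. The change of -0.54 (SE 0.09, edgeR adjusted p = 0.00130) in HN against Control was under the fold needed, and 0.01 with total counts. PEC against HN gave -0.24 (SE 0.09, edgeR adjusted p = 0.0639), and PEC against Control -0.79 (SE 0.09, edgeR adjusted p = 1.54e-04), a call lost with total counts (-0.43). Car2 alone of the 10 was lower in PEC than HN mice without overlap between the groups on both scales.

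Proximal tubule markers moved in the same libraries. The summed normalised RPKM of 6 proximal tubule markers was 1468, 1485 and 1662 for Control, 360.3, 337 and 339 for HN and 722, 856 and 509.9 for PEC, with Slc34a1 the most abundant and none at 0. Of these, 5 were called lower in HN than Control mice (Slc22a6 -2.32, Slc34a1 -2.28), 5 higher in PEC than HN (with total counts 3 higher and 1 lower) and all 6 lower in PEC than Control (5 with total counts). Their part in the level of Car2 was not tested. Of 9 other carbonic anhydrase genes, 6 were called lower and 1 higher in HN mice, led by Car4 (-2.19), Car14 (-2.16) and Car13 (2.04); with total counts 3 were lower and 2 higher. Between PEC and HN 4 were called higher and 1 lower, including Car9 (2.04) and Car4 (1.97), while Car3 (2.93) did not pass. Car4 and Car14 are membrane-bound forms of the proximal tubule. Of 6 genes of proximal tubule ammonium and bicarbonate handling, 4 were called lower in HN mice (Pck1 -3.26, Slc9a3 -1.35, Slc4a4 -1.21, Glud1 -1.09), and with total counts 3 were lower and 1 higher. Between PEC and HN, Pck1 was higher (1.38) and Slc4a4, the basolateral bicarbonate cotransporter, lower (-0.74).

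Per length, Car2 was the most abundant of the 10 genes in each group. In Control mice it was followed by Rhcg (44.8 normalised RPKM), Atp6v1g3 (24.9), Slc26a4 (24.5), Rhbg (20.5), Atp6v1b1 (20.2), Atp6v0d2 (15.1), Foxi1 (12.9), Slc4a1 (11.01) and Slc4a9 (8.96). The neighbours Atp6v1g3 and Slc26a4, Slc26a4 and Rhbg, Rhbg and Atp6v1b1, and Slc4a1 and Slc4a9 overlapped over the 3 mice. Slc4a1 was the lowest of the 10 in HN (2.29) and in PEC mice (5.92), while Slc4a9, the lowest in Control mice, was at 5.17 in HN and at 17.4 in PEC mice, where it overlapped with Atp6v0d2 (17.8).

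Other genes of intercalated cells were compared for reference. Of 12, 5 were called lower in HN than Control mice and 1 higher, with a median of -0.54; with total counts 1 was lower and 2 higher. Oxgr1 (-1.48) and Hmx2 (-1.09) were among those that fell, and the highest value, of Atp12a (1.81), did not pass with edgeR, but passed with DESeq2 (1.86), at an unadjusted p, with total counts, and without Control replicate 5 (2.88) or PEC replicate 2 (1.82). With edgeR the gene called higher was Dmrt2 (0.97), a factor of type A cells that was singled out after its values were seen. Between PEC and HN 6 of the 12 were called higher and 1 lower, with a median of 0.54 (5 higher and 1 lower with total counts). Insrr (1.24), a receptor that senses alkaline pH in type B cells, Aqp6 (1.04), a channel of type A cells, and Bsnd (0.95), a chloride channel subunit, rose most.

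Principal cells, the neighbours of intercalated cells, were followed by 8 markers. Their summed normalised RPKM was 542, 596 and 319 for Control, 279.8, 201 and 279.8 for HN and 356, 324 and 407 for PEC, with Aqp2 the most abundant and none at 0. In HN mice 4 of 8 were called lower (Aqp4 -2.14, Aqp2 -1.48, Aqp3 -1.40 and Fxyd4), and none higher (also none with DESeq2 or at an unadjusted p); with total counts 3 were lower and 3 higher. Above HN mice, PEC mice had 4 called higher, led by Fxyd4 (1.39) and Aqp4 (1.36). The ratio of the summed FPKM of the 10 genes to that of these markers was 0.750, 0.641 and 1.16 for Control, 0.949, 1.17 and 0.945 for HN and 0.959, 0.984 and 0.766 for PEC. The groups overlapped in every comparison, with exact permutation p-values of 0.3, 0.6 and 0.7 (adjusted 0.386, 0.72 and 0.788) for HN with Control, PEC with HN and PEC with Control in that order. Car2 and Aqp2 carry much of these sums.

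Markers of the thick limb and distal tubule and of tubular injury were counted as well. Of 5 thick limb and distal tubule markers, 3 were called lower in HN mice, led by Pvalb (-5.73), and 2 higher in PEC than HN mice (with total counts 2 lower and 1 higher, and 2 higher and 1 lower), while Umod, the most abundant, was at 0.07 in HN against Control. All 4 tubular injury markers were called higher in HN mice, led by Havcr1 (7.58). Of these, 1, Vcam1, was called lower in PEC than HN mice (-0.84), and 2 with total counts.

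**Figure D5:**
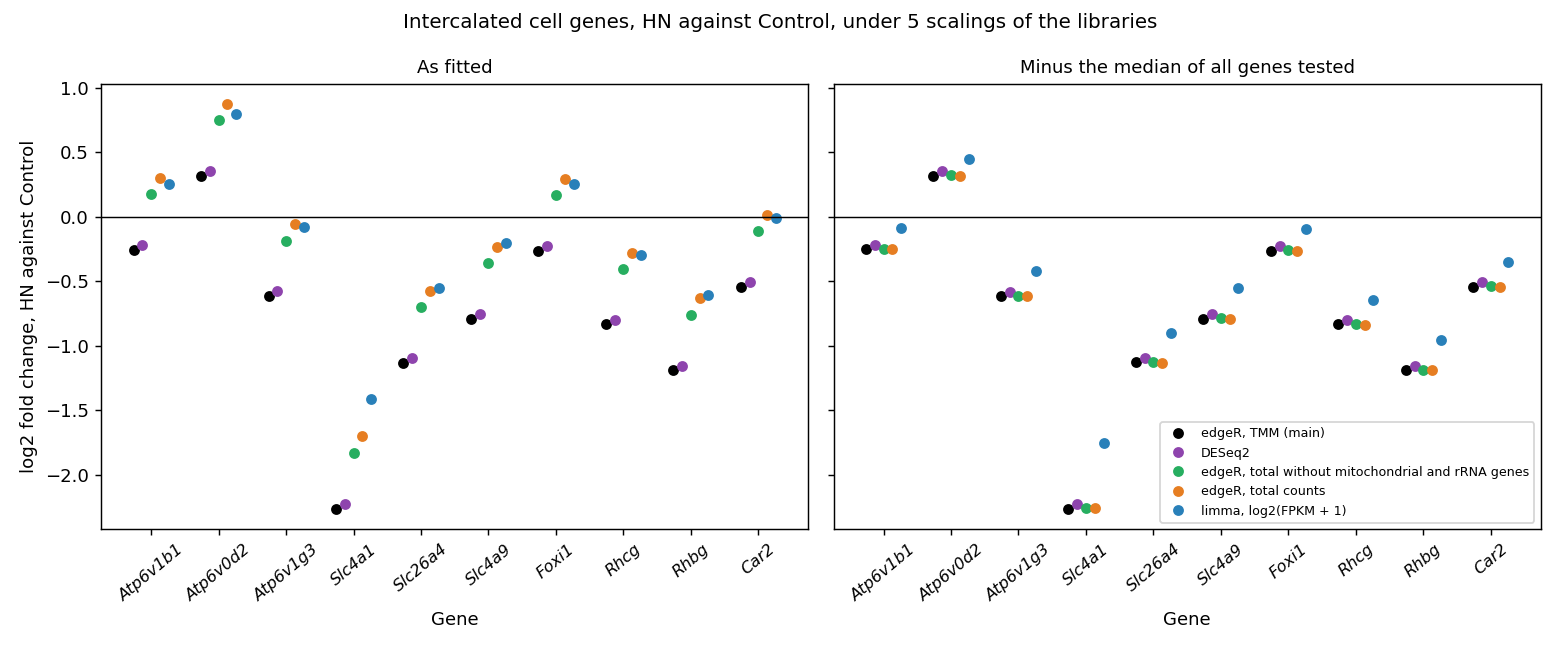
Log2 fold change of HN against Control (y axis) of the 10 genes (x axis) under 5 scalings of the libraries, as fitted (left) and after subtracting the median of all genes tested (right). The points spread on the left, where Atp6v1b1 and Foxi1 change sign (and Car2 with total counts), and on the right 9 genes lie below 0 and Atp6v0d2 above 0 under every scaling. Subtracting the median removes any shift common to all genes. Likeness between the edgeR scalings on the right was therefore fixed in advance and does not show which scaling is right.

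After the median of all genes in the same fit was subtracted, the range over the 10 fits was taken for each gene. This removes any shift common to all genes, so fits that differ only in scaling had to come out alike. The ranges therefore do not test the choice of scaling. In HN against Control, Slc4a1 lay at -2.32 to -1.76, Rhbg at -1.19 to -0.96, Slc26a4 at -1.22 to -0.90 and Atp6v0d2 at 0.28 to 0.45 relative to the median gene. In PEC against HN, Slc4a9 lay at 1.57 to 1.94, Slc4a1 at 1.09 to 1.46 and Rhcg at 0.80 to 1.29.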

How the data were processed

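Kidney poly(A) RNA of 9 mice was sequenced, with 3 mice per group and groups taken from the labelled disease state and treatment. Titles of all samples speak of HN mice, so Control was taken from the disease state. Whole-number counts per gene were deposited by the authors without normalization, and FPKM were deposited by the authors beside them. The aligner and counting program are not given in the sources used here; the submitters' processing notes list Bowtie 0.12.2, mm8 and mm9 with no role, while 51991 of the 55144 genes found in GENCODE M21 had its GRCm38 start and end. Count and FPKM columns of the same name belonged together (SD of log2 differences at most 0.000635 over 5013 genes, at least 0.222 for other names). Replicates differed beyond counting error (chi-square per degree of freedom 62.8 to 212).

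edgeR 4.0.16 in R 4.3.3 (glmQLFit and glmQLFTest, TMM, filterByExpr) was run on all 9 libraries in 1 fit, with Benjamini-Hochberg adjustment over 21392 genes, and all 10 members passed the filter. Calls needed 1.5-fold or more and an adjusted p of 0.05 or less. The normalised RPKM used exon lengths of GENCODE M21. Ratios of FPKM were tested with an exact two-sided permutation test in scipy 1.17.1, and p-values were adjusted over 18 comparisons. Near-identical copies were sought with blastn 2.17.0 (at least 90% identity over 50% of the transcript). The fits of edgeR (without an offset and with that for length and GC content), limma on log2(FPKM + 1) and DESeq2 were tested on simulated counts. This was done for HN against Control only. The simulated counts held no relation to gene length or GC content, and the other steps across genes were not tested in this way.

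The members and the marker lists were chosen with earlier results of these data known. All 10 members are described; of each other list, up to 3 genes with the largest absolute change in HN against Control and in PEC against HN may be named, and any gene of a list of up to 6. Alternatives were DESeq2 1.42.0, no filter on low counts, total counts with and without mitochondrial and rRNA genes, limma 3.58.1 on log2(FPKM + 1) and log2(FPKM + 0.1), an offset for gene length (natural spline, 5 degrees of freedom), only the 2 groups compared, other thresholds, and each library left out. An offset for length and GC content together was added after seeing the data. Replicate numbers do not pair mice. Protein sequences, and the allopurinol and higher-dose groups of the study, were not analysed here.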

Additional observations from a re-analysis of the deposited data

How the results depend on the processing

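The 3 mice per group limit these results more than depth does, since replicates differed by more than counting error. With total counts all 6 genes called lower in HN mice were still below 0, and Atp6v1b1, Foxi1 and Car2, which were not called, changed sign. No paired analysis was possible because each mouse gave 1 library in 1 group, and replicate numbers do not pair mice. Of 270 fold changes of single genes under other settings with all libraries, 192 kept their direction and side of the threshold, 40 lost and 22 gained a call and 16 changed sign. With 1 library left out, 262 of 270 were unchanged in this sense. In the cases below the cause was not tested unless the setting itself shows it, as fewer calls at a higher fold do.

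Members called in HN against Control were 6 (in brackets the share of all genes called in the same fit, here 32.4%), and 3 at a fold of 2 (22.6%), with total counts (42%) and with limma on log2(FPKM + 1) (36.6%). In PEC against HN they were 7 (28.7%), and 4 at a fold of 2 (16.8%), with total counts (30.8%), with limma on log2(FPKM + 1) (30.6%) and log2(FPKM + 0.1) (38.3%) and with the offset for length and GC content added after seeing the data (24.2%). In PEC against Control they were 3 (36.4%), and 0 at a fold of 2 (23.9%), 8 with no fold required (46.5%), 5 with total counts (5 higher, 0 lower; 39.2%), with limma on log2(FPKM + 0.1) (4 higher, 1 lower; 42.6%) and with the offset for length (1 higher, 4 lower; 35.7%), and 6 with the offset for length and GC content (2 higher, 4 lower; 34%). With each library left out the counts were 5 to 6, 6 to 7 and 3 to 4.

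The log2 fold change of Atp6v1b1 in HN against Control was 0.30 with total counts, 0.18 with total counts without mitochondrial and rRNA genes, and 0.26 and 0.27 with limma at a pseudocount of 1 and 0.1. For Foxi1 these were 0.29, 0.16, 0.25 and 0.27. Car2 was at 0.0136 with total counts. In PEC against HN, Atp6v1b1 was at -0.0104 and -0.0112 with limma at a pseudocount of 1 and 0.1, and Atp6v0d2 at 0.16 with the offset for length and GC content. In PEC against Control, Atp6v1b1 was at 0.32, 0.30, 0.25 and 0.26 under the 4 scalings above, and with 1 library left out it lay between -0.197 and 0.0940, the highest without PEC replicate 3. None of these was called.

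With 1 mouse left out, the log2 difference of the FPKM ratio of Atp6v1b1 to Atp6v1b2 between PEC and HN lay between -0.158 and 0.148, that of Atp6v1g3 to Atp6v1g1 between HN and Control between -0.0607 and 0.0735, and that of the 10 genes to principal cell markers between PEC and Control between -0.0560 and 0.372. No other ratio changed direction.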

Other observations

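Adipose markers stood apart in 1 library. In PEC replicate 3 the FPKM of Adipoq was 61.2, that of Plin1 11.03 and that of Cidec 36.1, whereas Adipoq was at most 4.87 in the other 8 libraries (in HN replicate 12). Lep, the other marker of the list, was at 0.32 or less in all 9. Car3 had an FPKM of 80.98 in the same library.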
